A study of Homo sapiens with 12 samples.

Results

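The oxidative and non-oxidative pentose phosphate pathway and the enzymes that make NADPH by other routes were described in 2 pancreatic cancer cell lines. The set was chosen by gene name and held 9 of the 58721 genes of the deposited tables, all of them protein coding: PGLS, PGD, RPIA, RPE, TKT, TALDO1, IDH1, IDH2 and NNT. The lines Pa-Tu-8902 (labelled Tu8902) and MIA PaCa-2 (labelled MiaPaCa2), both grown from pancreatic tumors, had been transduced with a lentivirus that carries a hairpin against GOT1 behind a doxycycline (dox) switch. Each line was profiled untreated (mnsdox) and after 5 days in dox (plsdox), with 3 poly(A) RNA libraries in each of the 4 groups and 12 in all. GOT1 is the cytosolic aspartate transaminase of the malate-aspartate shuttle, and the hairpin was present in the untreated cells too. No line without the hairpin was given dox, so dox itself and the loss of GOT1 cannot be told apart here, and which hairpin the sequenced cells carried was not given in the sources used here. The labels do not say whether the 3 libraries of a group came from separate cultures, so the p-values measure the spread between these libraries, which may be technical.

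The pentose phosphate pathway takes glucose 6-phosphate out of glycolysis. Its oxidative branch yields NADPH and ribulose 5-phosphate, and its reversible non-oxidative branch turns pentoses into ribose 5-phosphate for nucleotides or back into sugars of glycolysis. NADPH keeps glutathione and thioredoxin reduced and feeds fatty acid and cholesterol synthesis. Cytosolic IDH1 and mitochondrial IDH2 make NADPH from isocitrate, and NNT uses the proton gradient of the inner mitochondrial membrane to make NADPH from NADH. GOT1 turns aspartate into oxaloacetate in the cytosol, which malate dehydrogenase reduces to malate, and malic enzyme can then oxidize malate with the formation of NADPH.

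The libraries held from 26226537 (MIA PaCa-2 dox replicate 2) to 43406137 (Pa-Tu-8902 dox replicate 2) estimated counts, and a count of 0 allowed a level of at most 0.0691 to 0.114 CPM (counts scaled to the size of the library). The 9 genes had from 260 counts (NNT) to 15305 counts (TKT) in a library, so none was near that limit, and all 9 passed the filter on low counts in every comparison. GOT1 stood at 118 to 135 CPM in untreated and 4.37 to 5.67 CPM in dox-treated Pa-Tu-8902 cells, and at 67.1 to 75.8 and 2.24 to 3.08 CPM in MIA PaCa-2, with log2 fold changes of -4.64 (SE 0.09) and -4.76 (SE 0.11). Of the epithelial markers, KRT7, EPCAM and CDH1 were at 60.0 TPM (transcripts scaled to their length and to the library) or above in each Pa-Tu-8902 library and at most 1.26 TPM in each MIA PaCa-2 library. KRT8, KRT18 and KRT19 were at 127.68 TPM or above in each MIA PaCa-2 library. Markers of acinar and endocrine cells were at most 0.72 TPM in sum in any library, and leukocyte markers at most 9.82 TPM. The 7 ductal markers summed to 9290 to 10376 TPM in untreated and 8017 to 9039 TPM in dox-treated Pa-Tu-8902 cells, and to 2727 to 2993 and 2836 to 3066 TPM in MIA PaCa-2. Within that sum, CDH1 went from 60.0 to 70.2 TPM untreated to 124 to 139 TPM with dox in Pa-Tu-8902 and MUC1 from 65.1 to 72.4 to 129 to 132 TPM, while KRT8 went from 3609 to 4078 to 2747 to 3186 TPM and KRT18 from 2583 to 2815 to 2049 to 2419 TPM. In MIA PaCa-2, KRT8 went from 1382 to 1514 TPM untreated to 1538 to 1667 TPM with dox. KRT18 rose there from 895 to 1054 to 1162 to 1283 TPM. KRT19 fell there from 384 to 413 to 128 to 132 TPM, and MUC1 from 8.78 to 11.1 to 5.72 to 7.05 TPM. The 4 fibroblast markers summed to 3.76 to 6.31 TPM untreated and 17.6 to 21.3 TPM with dox in Pa-Tu-8902, nearly all of it COL1A1, and to 192 to 248 and 340 to 398 TPM in MIA PaCa-2, nearly all of it COL1A2, while DCN and LUM were at most 0.14 TPM. The part of these marker levels in the results was not tested. Replicate 2 of untreated MIA PaCa-2 stood apart from the other replicates of its group (chi-square per degree of freedom of 27.3 and 25.5, against 6.40 between the others). Replicate 3 of untreated Pa-Tu-8902 did so too (10.8 and 8.93, against 2.25). In dox-treated Pa-Tu-8902 cells replicates 1 and 2 differed most (20.6), against 8.09 and 7.21 for their pairs with replicate 3. Values that move by over 1.5 times or cross the limit on p without either untreated library named above are given beside the result, for the comparisons of 2 groups.

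Among the 9 genes, IDH1 and IDH2 were the genes that changed with dox by the rule used here, and the annotated transcripts of IDH2 have more than 1 start. The sequence around their starts is therefore shown, 250 bases before to 50 bases after the first base of the transcript, read 5′ to 3′ on the minus strand of GRCh38. The window of IDH1-201, the transcript with most of the IDH1 signal, lies at chr2:208255022-208255321. It covers the start of its first exon, lies within the IDH1 gene because a longer transcript starts further upstream, and overlaps the divergent gene IDH1-AS1. The window of IDH2-201 at chr15:90102419-90102718 overlaps the divergent gene IDH2-DT, and IDH2-202 starts within the IDH2 gene, with a window at chr15:90100646-90100945. Capitals mark matches on either strand to the core of the antioxidant response element TGACNNNGC, the CCAAT box CCAAT and the GC box GGGCGG.
IDH1-201: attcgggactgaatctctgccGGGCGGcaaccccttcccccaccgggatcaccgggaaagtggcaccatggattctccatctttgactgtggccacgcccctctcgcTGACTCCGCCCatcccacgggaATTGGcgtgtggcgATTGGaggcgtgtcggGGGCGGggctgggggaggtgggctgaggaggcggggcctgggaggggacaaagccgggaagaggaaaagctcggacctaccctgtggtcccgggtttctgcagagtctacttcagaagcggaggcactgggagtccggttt
IDH2-201: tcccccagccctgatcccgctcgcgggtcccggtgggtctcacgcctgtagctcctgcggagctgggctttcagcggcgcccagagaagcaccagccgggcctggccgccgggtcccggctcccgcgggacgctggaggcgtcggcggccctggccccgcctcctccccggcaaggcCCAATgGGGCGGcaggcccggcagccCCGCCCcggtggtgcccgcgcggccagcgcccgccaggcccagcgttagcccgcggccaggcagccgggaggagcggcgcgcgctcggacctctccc
IDH2-202: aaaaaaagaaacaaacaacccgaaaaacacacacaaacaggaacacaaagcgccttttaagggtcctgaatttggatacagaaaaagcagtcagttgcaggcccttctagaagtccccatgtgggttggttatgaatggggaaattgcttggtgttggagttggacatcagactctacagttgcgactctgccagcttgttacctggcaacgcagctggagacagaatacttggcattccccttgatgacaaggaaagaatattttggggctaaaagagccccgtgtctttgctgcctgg
The IDH1 window held 1 antioxidant core starting at -143 from the transcript start, with a GC box starting at -138 that overlaps it, 2 further GC boxes and 2 CCAAT boxes. The IDH2-201 window held 1 CCAAT box and 2 GC boxes, and the IDH2-202 window held none of these letters. The base composition also differed, with 79.7% G and C in the IDH2-201 window, 64.7% in that of IDH1-201 and 46.3% in that of IDH2-202.

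Over the windows of the same length that RefSeq gives for GRCh38, all 9 genes were matched. A gene was counted where any of its RefSeq windows held the letters, while the background is a share of single windows, so the units differ. The antioxidant core was found for 3 of the 9 genes (PGD, RPE and IDH1), against 13.3% of 35116 windows. CCAAT boxes were found for 6 of 9 genes, against 34.6% of windows. GC boxes were found for 8 of 9 genes, all but IDH2, against 45.0% of windows. The E box CACGTG was found for 1 gene, NNT, against 7.26% of windows. Neither the FOXO site GTAAACA (3.42% of windows) nor the sterol response element TCACNCCAC (1.13%) was found for any of the 9. For IDH1 the RefSeq window is the one printed above, and for IDH2 it is not. These matches are letters in a window and say nothing of whether a factor binds there.

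Levels per length were compared first, in TPM. TKT, the transketolase that moves 2-carbon units between sugars, was the highest of the 9 genes in all 4 groups, at 192 ± 9.7 TPM (SD, n = 3) in untreated and 239 ± 22 TPM in dox-treated Pa-Tu-8902 cells, and 244 ± 10 and 253 ± 8.8 TPM in MIA PaCa-2. NNT was the lowest, at 18.7 ± 2.2 and 18.8 ± 1.9 TPM in Pa-Tu-8902 and 4.09 ± 1.2 and 3.49 ± 0.72 TPM in MIA PaCa-2. In untreated Pa-Tu-8902 cells the order below TKT was PGD (139 TPM), TALDO1 (114), PGLS (97.9), RPE (83.6), IDH1 (61.9), RPIA (50.8), IDH2 (28.8) and NNT, with no overlap between the libraries of neighbors. In untreated MIA PaCa-2 cells it was PGD (184 TPM), TALDO1 (149), RPE (59.97), IDH2 (59.9), PGLS (49.2), IDH1 (39.8), RPIA (37.5) and NNT, and the libraries overlapped between RPE and IDH2 and between IDH1 and RPIA. With dox, IDH1 had rank 4 in Pa-Tu-8902, where TALDO1, PGLS and IDH1 each overlapped with the next lower gene, and rank 8 in MIA PaCa-2, where no neighbors overlapped.

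**Figure D1:**
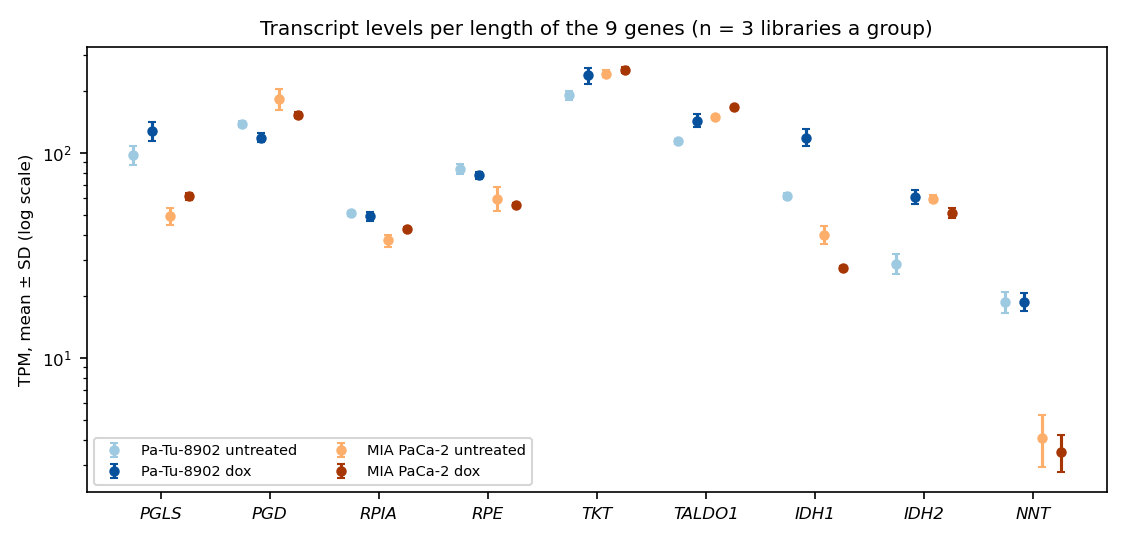
Mean TPM (log scale) of the 9 genes in the 4 groups, with bars of 1 SD over 3 libraries. TKT was highest and NNT lowest in every group, and NNT was 18.7 TPM in untreated Pa-Tu-8902 against 4.09 TPM in untreated MIA PaCa-2.

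The dox comparison in Pa-Tu-8902 asked which of these genes differed between dox-treated and untreated cells. IDH1 and IDH2 rose by 1.81-fold and 2.08-fold, PGD was lower by 1.24-fold, and the remaining 6 genes differed by at most 1.24-fold. A gene was called when its adjusted p (by the quasi-likelihood test of edgeR, adjusted after Benjamini and Hochberg over all genes tested) was below 0.01 and its fold change at least 1.5. By this rule 2 of the 9 genes were called, both higher, where 9.22% of 14949 genes tested were called higher and 7.12% lower. At any fold, 3 of 9 had an adjusted p below 0.01, against 38.1% of all genes, and in 4 of 9 the normalized CPM of the groups did not overlap, against 58.1%. The median log2 fold change of the 9 was 0.09, against 0.0014 over all genes.

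IDH1 was at 96.4, 97.8 and 109 normalized CPM in the untreated Pa-Tu-8902 libraries and at 196, 179.8 and 171 CPM in the dox libraries. Every dox library lay above every untreated library. The log2 fold change was 0.85 (SE 0.07, adjusted p = 2.39e-06, edgeR), and it ran from 0.82 to 0.92 over the 13 alternatives tried. IDH2 was at 37.6, 35.8 and 44.5 CPM untreated and at 74.0, 84.9 and 85.4 CPM with dox, again without overlap. Its log2 fold change was 1.05 (SE 0.08, adjusted p = 2.54e-06, edgeR), with a range of 0.99 to 1.15 over the alternatives.

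PGD, the 6-phosphogluconate dehydrogenase that yields the second NADPH of the oxidative branch, was at 165, 157 and 183 CPM untreated and 127, 146 and 133 CPM with dox. The groups did not overlap, and the log2 fold change of -0.31 (SE 0.07, adjusted p = 0.00251, edgeR) passed the limit on p but lay under the fold limit. Without dox replicate 3 the adjusted p of PGD was 0.0172 (edgeR). PGLS, the lactonase that acts just before PGD, was at 52.8, 55.6 and 68.8 CPM untreated and 62.8, 81.1 and 76.1 CPM with dox, which overlap (log2 fold change 0.32, SE 0.11, adjusted p = 0.0295, edgeR). Its adjusted p was below 0.01 in DESeq2 (0.00592), with no filter on low counts, with the replicate block (0.00675), and without untreated replicate 3 (0.43, adjusted p = 0.00331) or dox replicate 1 (0.43, adjusted p = 0.00221), so that whether PGLS passed depends on the setting.

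In the non-oxidative branch of Pa-Tu-8902 no gene had an adjusted p below 0.01 in the edgeR fit, and for TALDO1 this depended on the setting. TALDO1, the transaldolase, was at 91.3, 90.4 and 101 CPM untreated and 101, 124 and 114 CPM with dox (log2 fold change 0.26, SE 0.07, adjusted p = 0.0123, edgeR). The adjusted p was 0.00229 in DESeq2, 0.00845 in edgeR with at least 10 counts in every library, 7.97e-05 with no filter, 0.00634 without untreated replicate 3 and 0.00063 without dox replicate 1. TKT ranged over 302 to 375 CPM untreated and 328 to 362 CPM with dox (0.09, SE 0.08), and its log2 fold change was 0.20 without untreated replicate 3 (adjusted p = 0.0119, edgeR) and 0.25 with effective gene lengths as offsets. RPIA, the isomerase that makes ribose 5-phosphate, ranged over 62.4 to 63.8 CPM untreated and 53.9 to 63.2 CPM with dox (-0.13, SE 0.06), and RPE, the epimerase that makes xylulose 5-phosphate, over 109.8 to 112 and 103 to 106 CPM (-0.08, SE 0.04, and -0.18 with effective lengths). NNT ranged over 47.1 to 53.3 and 45.7 to 49.4 CPM (-0.08, SE 0.06). The TPM of PGLS, TKT and TALDO1 did not overlap between the groups, while their normalized CPM did. RPE was the other way round, so that for these 4 genes the scale decides whether the groups overlap.

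**Figure D2:**
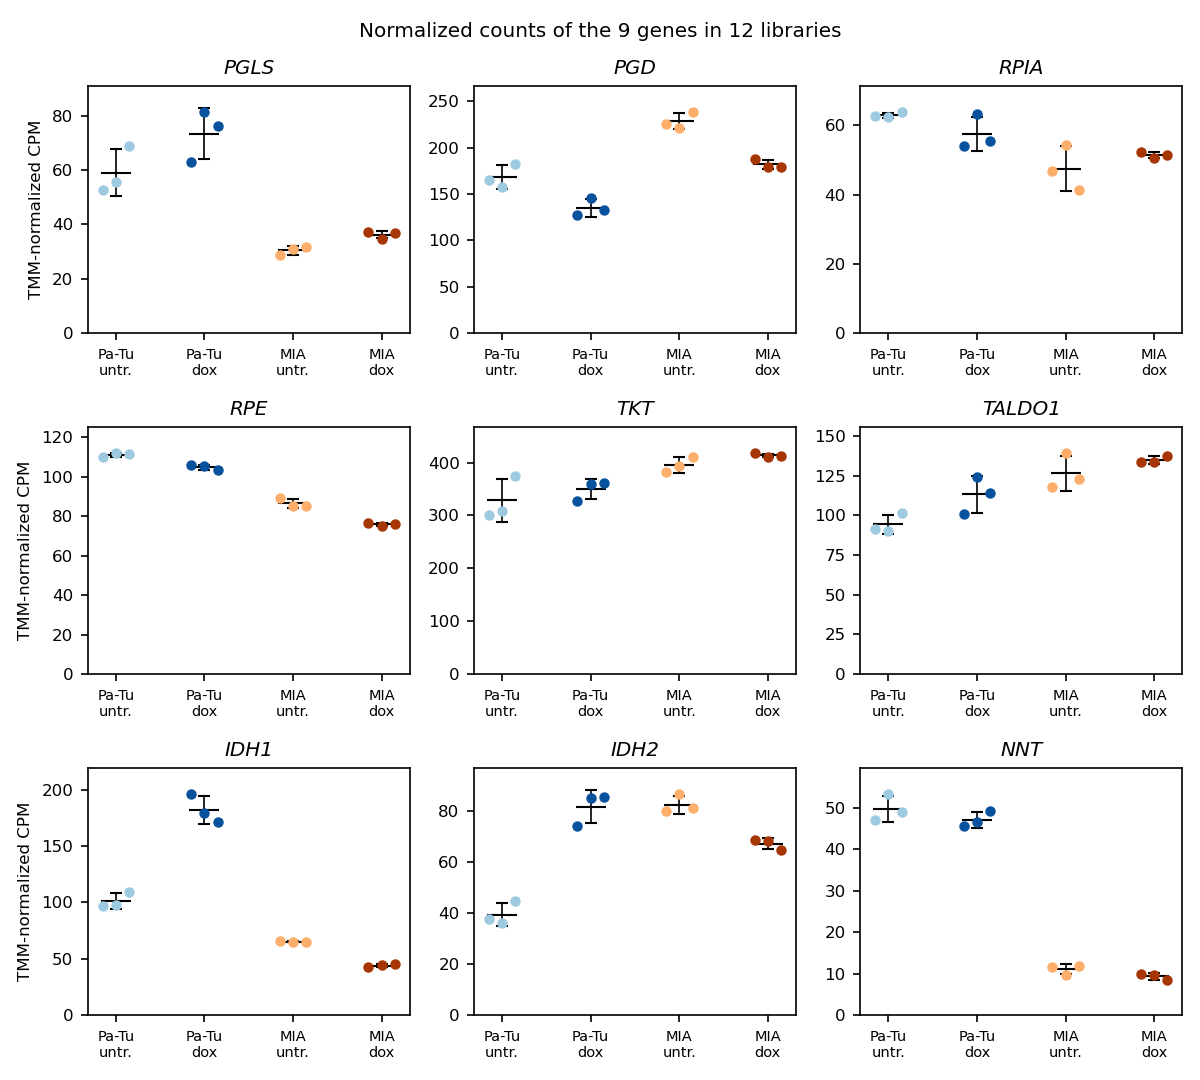
TMM-normalized CPM of each of the 9 genes in the 12 libraries (points), with the mean and 1 SD of each group of 3 in black. Dox and untreated libraries of IDH1 and IDH2 separate upward in Pa-Tu-8902 and downward in MIA PaCa-2, and PGD is lower with dox in both lines.

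In MIA PaCa-2 the 2 isocitrate dehydrogenase genes went the other way. IDH1 was 1.48-fold lower with dox and IDH2 1.23-fold lower, PGD was 1.25-fold lower as in Pa-Tu-8902, and none of the 9 genes was called. The background was 4.36% of 14589 genes called higher and 7.64% lower. At an unadjusted p below 0.05 edgeR marked 6 of the 9, against 49.6% of all genes, and DESeq2 called 0. At any fold, 3 of 9 had an adjusted p below 0.01, all lower, against 27.2% of all genes, and 5 of 9 did not overlap in normalized CPM, against 52.8%. The median log2 fold change of the 9 was -0.19, against -0.0089 over all genes.

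IDH1 was at 65.6, 64.6 and 65.0 CPM in untreated MIA PaCa-2 cells and at 42.3, 43.99 and 45.4 CPM with dox. Every untreated library lay above every dox library. The log2 fold change of -0.57 (SE 0.06, adjusted p = 2.62e-05, edgeR) lay just under the fold limit, and IDH1 was called without dox replicate 3 (-0.60) and with RSEM's effective gene lengths as offsets (-0.59). IDH2 was at 79.6, 86.3 and 80.9 CPM untreated and 68.6, 68.0 and 64.5 CPM with dox, without overlap (-0.29, SE 0.06, adjusted p = 0.0029, edgeR). That p of IDH2 rose to 0.0105 with effective lengths, 0.0128 with the replicate block, and 0.0119, 0.0124 and 0.0179 without dox replicates 1, 2 and 3. PGD was at 226, 221 and 238 CPM untreated and 188, 179 and 179 CPM with dox, also without overlap (-0.32, SE 0.06, adjusted p = 0.00113, edgeR).

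The other members of the set had adjusted p-values above the limit in MIA PaCa-2. PGLS was at 28.6, 31.0 and 31.8 CPM untreated and 37.2, 34.7 and 36.7 CPM with dox, with a log2 fold change of 0.25 (SE 0.07, adjusted p = 0.0132, edgeR). RPE was at 89.1, 85.1 and 85.1 CPM untreated and 76.4, 74.9 and 76.0 CPM with dox (-0.19, SE 0.06, adjusted p = 0.0211, edgeR). Neither gene overlapped between the groups in CPM, while in TPM RPE did (50.9 to 65.6 untreated, 54.6 to 57.1 with dox) and RPIA and TALDO1 did not. Without untreated replicate 2 the adjusted p of PGLS was 0.00461 and that of RPE 0.00346 (edgeR), and RPE also passed in 1 fit of all 12 libraries (0.00594). NNT was at 11.6, 9.67 and 11.8 CPM untreated and 9.90, 9.62 and 8.41 CPM with dox, with replicate 2 of the untreated group inside the dox range (-0.25, SE 0.11, adjusted p = 0.0929, edgeR). RPIA (0.12, SE 0.09), TKT (0.07, SE 0.06) and TALDO1 (0.09, SE 0.07) differed by less than 2 standard errors on the log2 scale. These values moved with untreated replicate 2, without which RPIA stood at 0.22 (adjusted p = 0.00902, edgeR), TALDO1 at 0.16 (adjusted p = 0.0148, edgeR) and NNT at -0.34 (adjusted p = 0.0112, edgeR). Without untreated replicate 3, RPIA stood at 0.02.

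Whether the lines differed in their response was tested as the difference of the log2 fold changes over all 12 libraries. The response of IDH1 was higher in Pa-Tu-8902 by 1.42 (SE 0.09, adjusted p = 6.46e-09, edgeR) and that of IDH2 by 1.35 (SE 0.11, adjusted p = 1.06e-07, edgeR). These 2 of 9 genes were called, both higher in Pa-Tu-8902, where 6.56% of 16544 genes were called higher and 3.86% lower. For the other 7 genes the difference lay between -0.24 (RPIA, SE 0.12, adjusted p = 0.137, edgeR) and 0.18 (NNT, SE 0.12, adjusted p = 0.327, edgeR). That of PGD was 0.01 (SE 0.09), with a 1.24-fold and a 1.25-fold lower level in the 2 lines. The difference test shares its libraries with the 2 dox comparisons and is not independent of them.

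**Figure D3:**
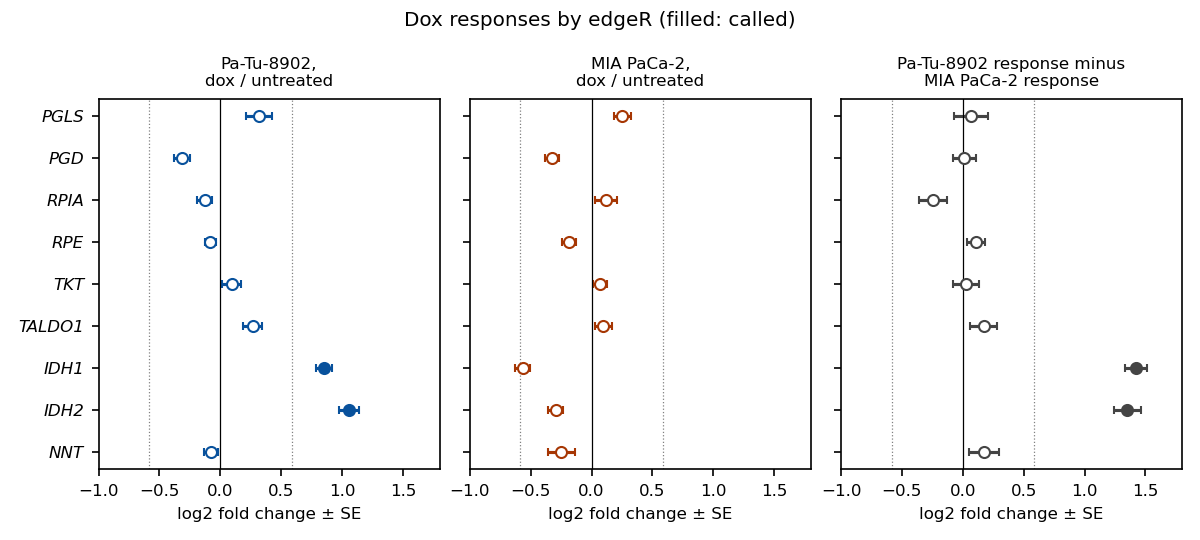
Log2 fold change ± SE of the 9 genes with dox in each line, and the difference of the 2 responses, from edgeR. Filled points passed the call, dotted lines mark the 1.5-fold limit, and IDH1 and IDH2 stand at 1.42 and 1.35 in the difference while the other 7 lie between -0.24 and 0.18.

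Summed over both genes, the TPM of IDH1 and IDH2 was 87.8 to 95.7 in untreated and 175 to 188 in dox-treated Pa-Tu-8902 libraries. In MIA PaCa-2 the sum was 93.5 to 105 untreated and 75.3 to 80.7 with dox. The untreated lines overlapped in the sum through untreated MIA PaCa-2 replicate 2 (93.5 TPM), and the other 2 libraries of that group, at 101 and 105 TPM, lay above all untreated Pa-Tu-8902 libraries. The dox-treated lines did not overlap. The share of IDH1 in that sum was 68.3 ± 2.2% (SD, n = 3) untreated and 66.0 ± 3.8% with dox in Pa-Tu-8902 (two-sided exact permutation test, p = 0.4). In MIA PaCa-2 it was 39.9 ± 1.9% and 35.1 ± 1.6% (exact permutation p = 0.1, the smallest that 3 against 3 libraries allow). The IDH2 level of dox-treated Pa-Tu-8902 cells, 55.7 to 64.3 TPM, overlapped with that of untreated MIA PaCa-2 cells, 58.2 to 62.6 TPM.

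RSEM's transcript estimates, which are less certain than its gene totals, gave IDH1-201 from 91.7% to 97.0% of the IDH1 TPM in every library. IDH2 was split over 3 of its 4 annotated transcripts. IDH2-201 was at 12.8 ± 0.88 TPM (SD, n = 3) in untreated and 30.3 ± 3.0 TPM in dox-treated Pa-Tu-8902 cells, and at 25.9 ± 2.5 and 21.8 ± 0.73 TPM in MIA PaCa-2. IDH2-202, with the start inside the gene, was at 10.3 ± 2.4 and 20.6 ± 4.8 TPM in Pa-Tu-8902 and 22.8 ± 4.6 and 21.4 ± 4.0 TPM in MIA PaCa-2. In Pa-Tu-8902 the dox and untreated libraries of both transcripts did not overlap, and in MIA PaCa-2 those of IDH2-202 did. IDH2-204, annotated as a target of nonsense-mediated decay, took 11.7% to 22.4% of the IDH2 TPM in a library. PGLS-201, PGD-201, TALDO1-201 and the single annotated RPIA transcript each took 85.7% or more of their gene's TPM. RPE, TKT and NNT were split over 3, 3 and 4 transcripts that reached 10% in a group mean. In MIA PaCa-2, NNT-202 took 30.5% to 52% of the NNT TPM untreated and 16.8% to 27.7% with dox. NNT-208 took 12.8% to 20.4% and 32.3% to 45.2% there, and both lay at 1.89 TPM or below. In Pa-Tu-8902, TKT-202 was at 74.0 to 74.3 TPM untreated and 94.1 to 127 TPM with dox, while TKT-203 and TKT-208 overlapped. These shifts were not tested.

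**Figure D4:**
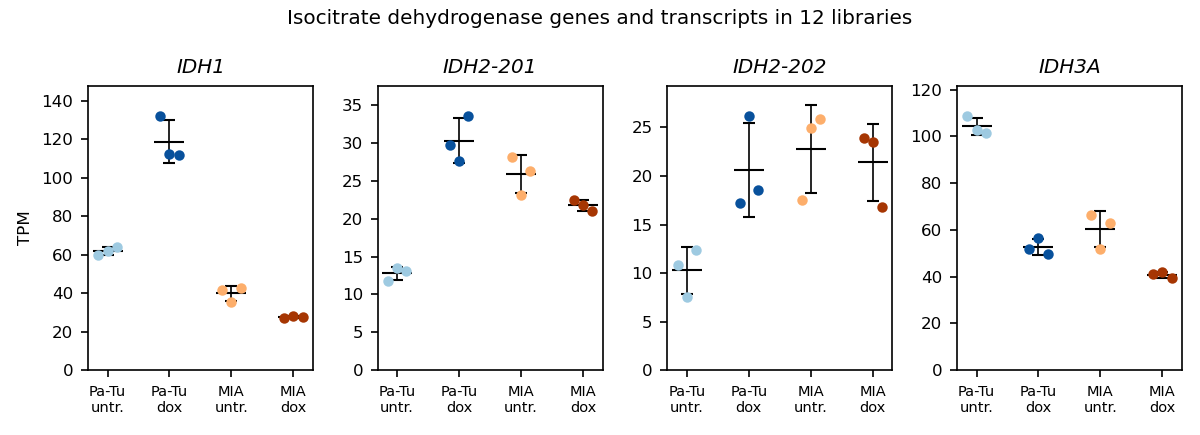
TPM of IDH1, the transcripts IDH2-201 and IDH2-202, and IDH3A in the 12 libraries (points), with the mean and 1 SD of each group of 3 in black. IDH1 and IDH2-201 were higher with dox in Pa-Tu-8902, while IDH3A was lower with dox there, at 49.5 to 56.5 TPM against 101 to 109 TPM.

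At baseline the lines differed most in NNT. Untreated Pa-Tu-8902 cells had 4.45-fold more NNT, 1.91-fold more PGLS and 1.53-fold more IDH1 than untreated MIA PaCa-2 cells, and 2.12-fold less IDH2. These 4 of 9 genes were called, 3 higher and 1 lower, where 28.9% of 15608 genes were called higher and 29.3% lower. At any fold all 9 had an adjusted p below 0.01, against 72.9% of all genes, and in all 9 the libraries did not overlap in CPM, against 81.5%. For TKT this did not hold throughout: its adjusted p was 0.204 without untreated Pa-Tu-8902 replicate 1 (-0.14), 0.175 without replicate 2 (-0.16), 0.0181 without untreated MIA PaCa-2 replicate 3 and 0.012 with the size factors of DESeq2 in edgeR. The median log2 fold change was 0.34, against -0.03 over all genes.

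NNT was at 47.1, 53.3 and 49.0 CPM in untreated Pa-Tu-8902 cells and at 11.6, 9.67 and 11.8 CPM in untreated MIA PaCa-2 cells (log2 fold change 2.15, SE 0.10, adjusted p = 2.30e-10, edgeR). With dox it was at 45.7 to 49.4 CPM and 8.41 to 9.90 CPM, so the lines stood apart in both states. PGLS differed by 0.94 (SE 0.09, adjusted p = 6.09e-07, edgeR) and IDH2 by -1.09 (SE 0.08, adjusted p = 3.50e-08, edgeR). IDH1 differed by 0.62 (SE 0.07, adjusted p = 1.91e-06, edgeR), close to the fold limit, and lost the call without untreated MIA PaCa-2 replicate 2 (0.56) and with effective lengths as offsets (0.57). Under the fold limit, RPIA (0.39) and RPE (0.34) were higher in Pa-Tu-8902, and PGD (-0.46), TALDO1 (-0.44) and TKT (-0.29) were lower. Each side of this comparison is 1 line, so line and culture history cannot be told apart.

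In GRCh38, IDH1 lies at chr2:208236229-208266074, RPE at chr2:210002565-210022260 and RPIA at chr2:88691673-88750929. IDH2 is at chr15:90083045-90102477, NNT at chr5:43602692-43707405, PGD at chr1:10398592-10420511, PGLS at chr19:17511636-17521288, TKT at chr3:53224712-53256052 and TALDO1 at chr11:747415-765012. The libraries were made with a strand-specific kit, but the sources used here do not state that RSEM counted reads by strand, and IDH1 overlaps IDH1-AS1, NNT overlaps NNT-AS1, RPE overlaps KANSL1L and PGLS overlaps PGLS-DT on the opposite strand, so that reads in those overlaps cannot be told apart. RPE has a near-identical copy, RPEL1, which was at 2 counts or fewer in every library.

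A list of 25 other genes of the pathway and of NADPH and isocitrate metabolism was counted beside the 9. In Pa-Tu-8902, 21 were tested and 2 were called (9.52%), both lower, where 7.12% of all genes were called lower, and 12 had an adjusted p below 0.01 at any fold, 3 higher and 9 lower, where 38.1% of all genes did. In MIA PaCa-2, 20 were tested and 4 were called, all lower, where 7.64% of all genes were called lower. Their median log2 fold change was -0.11 and -0.14, against 0.0014 and -0.0089 over all genes. TKTL1, TKTL2 and RPEL1, relatives of TKT and RPE, had too few counts to be tested in any comparison.

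IDH3A, the catalytic subunit of the NAD-dependent isocitrate dehydrogenase of the citric acid cycle, fell in both lines. It was at 140.4, 142 and 151 CPM in untreated and 60.9, 65.6 and 62.2 CPM in dox-treated Pa-Tu-8902 cells (-1.20, SE 0.05, adjusted p = 3.85e-08, edgeR). In MIA PaCa-2 it was at 85.2, 78.2 and 77.4 CPM untreated and 51.6, 51.5 and 48.9 CPM with dox (-0.66, SE 0.06, adjusted p = 1.37e-05, edgeR). No library overlapped in either line. The other subunits, IDH3B (-0.11, SE 0.06, and -0.05, SE 0.06) and IDH3G (-0.04, SE 0.06, and -0.21, SE 0.06), did not pass the test in either line. In Pa-Tu-8902, therefore, the NADP-dependent IDH1 and IDH2 rose while the NAD-dependent IDH3A fell, and in MIA PaCa-2 all 3 were lower with dox.

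MTHFD2L, a mitochondrial enzyme of folate metabolism, fell in both lines. It was at 6.17 to 7.39 CPM untreated and 3.67 to 4.59 CPM with dox in Pa-Tu-8902 (-0.74, SE 0.13, adjusted p = 0.00068, edgeR), and at 18.4 to 22.3 and 10.0 to 11.2 CPM in MIA PaCa-2 (-0.91, SE 0.10, adjusted p = 2.98e-05, edgeR). PRPS2, which makes phosphoribosyl pyrophosphate from ribose 5-phosphate, fell in MIA PaCa-2 from 228 to 243 CPM untreated to 152 to 160.3 CPM with dox (-0.60, SE 0.06, adjusted p = 1.37e-05, edgeR), close to the fold limit. Without untreated replicate 1 it was not called. PRPS2 was lower in Pa-Tu-8902 too, without overlap but under the fold limit (-0.27, SE 0.05, adjusted p = 0.00149, edgeR). Its difference of responses, 0.33 (SE 0.08, adjusted p = 0.00583, edgeR), was also under the fold limit. ALDH1L2, the mitochondrial formyltetrahydrofolate dehydrogenase, which yields NADPH, fell in MIA PaCa-2 from 44 to 72 counts to 4 to 17 counts per library (-2.44, SE 0.43, adjusted p = 0.000932, edgeR), at 0.43 TPM or below in every library.

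None of the 22 genes of this list that were tested for a difference of response between the lines was called. At an unadjusted p below 0.05 edgeR marked 14, against 36.7% of all genes, 7 had an adjusted p below 0.01 at any fold, against 16.9%, and DESeq2 called 0. At baseline 14 of 21 were called, 5 higher in Pa-Tu-8902 and 9 lower, where 28.9% of all genes were called higher and 29.3% lower. The malic enzymes are named here after their values were seen, and ME2 and ME3 were among the 14. Mitochondrial ME3 was at 46.4 to 51.3 CPM in untreated Pa-Tu-8902 cells and at 0 counts in the 3 untreated MIA PaCa-2 libraries. Mitochondrial ME2 was at 35.6 to 37.7 CPM in untreated Pa-Tu-8902 cells and 148 to 161 CPM in untreated MIA PaCa-2 cells (-2.06, SE 0.07, adjusted p = 1.48e-11, edgeR). Cytosolic ME1 passed the limit on p but not the fold limit at baseline (0.50, SE 0.07, adjusted p = 2.65e-05, edgeR). With dox ME1 was lower in MIA PaCa-2 (-0.54, SE 0.06, adjusted p = 5.86e-05, edgeR), without overlap but under the fold limit. In Pa-Tu-8902 it differed by -0.10 (SE 0.06, adjusted p = 0.157, edgeR). Its difference of responses was 0.44 (SE 0.09, adjusted p = 0.000978, edgeR), also under the fold limit.

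The 3 members that varied most over the 12 libraries were NNT, IDH1 and PGLS, with an SD of log2 CPM of 1.19, 0.80 and 0.55. For each, the 2 genes with the nearest pattern among 13366 genes were found by the root mean square difference of centered log2 CPM. Nearest to NNT were DERL1 (0.12) and AC009237.3 (0.12), nearest to IDH1 were P3H2 and CLDN4 (both 0.14), and nearest to PGLS were CTSD (0.05) and GORASP2 (0.09). CLDN4, a tight junction gene, averaged 242 and 430 CPM in untreated and dox-treated Pa-Tu-8902 cells and 135 and 111 CPM in MIA PaCa-2, and CTSD, a lysosomal protease, averaged 575, 702, 293 and 351 CPM in the same order. These are descriptions of likeness over 12 libraries that share their line and treatment. In these bulk libraries, fewer cells of a type and less RNA per cell cannot be told apart for any of the genes above.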

How the data were processed

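RNA-seq libraries of 2 pancreatic cancer lines with a dox-inducible hairpin against GOT1 were used, 3 in each of the 4 groups that the sample titles give. The authors trimmed the reads with Trimmomatic 0.39 and quantified them with RSEM 1.3.1 calling STAR 2.5.2a on GRCh38 with a GENCODE annotation. The deposited expected counts (5.34% not whole) and TPM of 58721 genes were used, with the deposited transcript TPM and RSEM's effective lengths. FPKM values were not used here. RSEM spreads reads that fit several genes or transcripts by estimate, which bears most on transcript shares.

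The expected counts were rounded to whole numbers. TMM factors and the quasi-likelihood test (glmQLFit, glmQLFTest) came from edgeR 4.0.16, run in R 4.3.3, on the genes that reached 10 counts in 3 or more libraries of a fit. Each comparison was fitted on its 6 libraries, and the difference of responses on all 12. A gene was called where its adjusted p was below 0.01 and it differed by 1.5-fold or more. The SE was derived from the size of the log2 fold change and the F statistic, as their ratio after taking the root of F. CPM in the text were computed from the expected counts before rounding, with TMM factors of the rounded counts over the 12 libraries. Shares of IDH1 were compared by exact permutation. Limits from a count of 0 (3 counts of a library) cover counting error only. The 9 genes, the list of 25 other genes and the marker lists were chosen with earlier results of these data known. Named beside the 9 genes were GOT1, listed genes called with dox or in the difference of responses, and the 2 genes nearest in pattern to each of the 3 most variable members. The malic enzymes ME1, ME2 and ME3, the IDH3A partners IDH3B and IDH3G, and RPEL1, TKTL1 and TKTL2, named as relatives of members, fall outside this rule and were chosen after their values were seen. The alternatives tried were DESeq2 1.42.0, DESeq2 size factors within edgeR, other filters on low counts, effective lengths, a replicate block, other thresholds, a joint fit and leaving out each library. Libraries of a group differed by more than sampling noise (chi-square per degree of freedom of 2.25 or more), so none was counted as a duplicate. The scripts were tested on simulated counts. Positions are from GENCODE release 44, matched by gene identifier, and promoter windows from RefSeq and the genome of the same assembly.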

Additional observations from a re-analysis of the deposited data

Results flagged for a closer look

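The responses of IDH1 and IDH2 to dox differed between the lines in the test of the difference itself. The log2 fold change of IDH1 was higher in Pa-Tu-8902 than in MIA PaCa-2 by 1.42 (adjusted p = 6.46e-09, edgeR) and stayed between 1.38 and 1.48 over 18 alternatives. IDH1 was higher with dox in 3 of 3 Pa-Tu-8902 libraries and lower in 3 of 3 MIA PaCa-2 libraries than every untreated library of the line. For IDH2 the difference was 1.35 (adjusted p = 1.06e-07, edgeR), between 1.298 and 1.45 over the alternatives, with the same separation of the libraries.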

How the results depend on the processing

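Over the alternatives, 502 values of single members kept their direction and their side of the call (adjusted p and fold limit together). Of the rest, 7 changed direction, 2 gained the call and 2 lost it. Among counts or shares, 135 stayed within the limits set for them and 9 did not. With an adjusted p below 0.01 and no fold limit, 3 members were called in MIA PaCa-2 with dox, 9 at baseline, 12 genes of the other list in Pa-Tu-8902 and 7 in the difference of responses. With effective lengths as offsets, IDH1 became the 1 member called in MIA PaCa-2, the log2 fold change of TKT there turned to -0.0151 and the difference of RPE to -0.0147. Of the other list, the difference of responses held 1 call with no filter on low counts (ALDH1L2) and 2 at an adjusted p of 0.05. Leaving out 1 library at a time gave 0 to 1 members called in MIA PaCa-2 (1, IDH1, without dox replicate 3), 3 to 4 at baseline and 0 to 1 of the other list in the difference (1, ALDH1L2, without MIA PaCa-2 dox replicate 2). The change in the IDH1 share ran from -4.43 to -1.01 percentage points in Pa-Tu-8902 and from -5.80 to -3.97 in MIA PaCa-2. Without single libraries the difference of PGD ran from -0.0289 to 0.0733 and that of TKT from -0.0142 to 0.134, both changing sign and neither past the threshold. On the adjusted p alone, 24 values of members crossed 0.01, 14 to below and 10 to above, and are given beside the results. The causes were not tested. Depth limits ALDH1L2 in MIA PaCa-2, with 4 to 17 counts in the dox libraries.

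Same-numbered libraries did not deviate together (correlations from -0.257 to 0.265), so the numbers were not taken as a pairing. With the replicate number as a block, the members called numbered 2 with dox in Pa-Tu-8902, 0 with dox in MIA PaCa-2, 4 at baseline and 2 in the difference of responses, as without it, and no member changed its call. On the adjusted p alone, PGLS in Pa-Tu-8902 passed with the block (0.00675) and IDH2 in MIA PaCa-2 did not (0.0128).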
